A study of Mus musculus with 12 samples.

Results

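Genes that carry out glycolysis or answer to low oxygen were described in TC2Ras mouse prostate tumors that differed in 2 factors, adipose stromal cells (ASC) and inorganic arsenic (iAs). The genes were chosen as a list of 32 symbols, which matched 33 of the 55401 Ensembl genes of the count table because Aldoa stands for 2 of them. All 33 passed the filter on low counts and were tested. TC2Ras cells were implanted under the skin of both flanks of mice, 125000 cells a site, either alone or with 1% ASC-GFP cells, which are primary stromal cells from the fat of mice that express GFP. Drinking water held 0 or 300 ppb iAs from implantation to day 21, and every mouse ate the same low-arsenic chow. The 4 groups of 3 tumors were Control (TC2Ras alone, 0 ppb), ASC (with 1% ASC, 0 ppb), As300 (TC2Ras alone, 300 ppb) and ASC_As300 (with 1% ASC, 300 ppb). A tumor here is the tissue of both flanks of a mouse, combined, and the sample labels name stromal cells as its cell type, although the protocols describe tumors.

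Cells split glucose by glycolysis and turn the pyruvate into lactate when oxygen is short. Oxygen is sensed by prolyl hydroxylases, among them the products of Egln1 and Egln3, which mark the alpha subunit of hypoxia-inducible factor (HIF) for removal. In low oxygen the subunit, whose HIF-1 form is encoded by Hif1a, persists and activates genes for glucose uptake, glycolysis, lactate export, pH control, vessel growth and mitophagy, including Egln3 itself. Because this control acts largely on the protein, the mRNA of Hif1a does not measure HIF activity.

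Total counts per tumor ran from 39157647 to 55168642, and the most abundant row took 3.23% to 11.4% of them. Levels are given as CPM, counts-per-million on TMM-scaled library sizes. Tumors stood apart in markers of other tissues. ASC replicate 2 had the highest sums of adipocyte (806 CPM), fibroblast (10090 CPM), macrophage (1769 CPM) and endothelial markers (290.7 CPM), and 11.4% of its counts were on the most abundant row. Skeletal muscle markers summed to 1978 CPM in Control replicate 2 and 1933 CPM in As300 replicate 1, against 3.25 to 391 CPM elsewhere. B and plasma cell markers reached 331 CPM in Control replicate 1, against 90.8 to 139 CPM elsewhere. The prostate marker Pbsn had no count in any tumor. In bulk tissue, fewer cells of a type and less RNA per cell cannot be told apart.

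The promoters of 4 members are printed, those among the 6 members with the smallest p-values against Control that had an upstream window free of annotated exons. They were taken from RefSeq (GRCm38.p6), which holds a window for 30 of the 32 symbols and none for Ndrg1 and Bnip3l. Each runs over the 250 bases before the transcription start, all on the minus strand, at chr12:54203875-54204124 for Egln3, chr17:46032378-46032627 for Vegfa, chr7:126799255-126799504 for Aldoa and chr6:125165774-125166023 for Gapdh. Capitals mark the core of a hypoxia response element, ACGTG or GCGTG on either strand, so CACGT and CACGC as well. ACGTG and CACGT also lie inside the E-box CACGTG, and none of these 4 stretches holds that longer word.
Egln3: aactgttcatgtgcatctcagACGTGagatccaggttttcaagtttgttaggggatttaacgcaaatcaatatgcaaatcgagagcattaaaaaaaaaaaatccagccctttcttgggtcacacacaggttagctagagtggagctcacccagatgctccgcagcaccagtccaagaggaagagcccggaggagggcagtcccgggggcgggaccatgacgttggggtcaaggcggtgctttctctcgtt
Vegfa: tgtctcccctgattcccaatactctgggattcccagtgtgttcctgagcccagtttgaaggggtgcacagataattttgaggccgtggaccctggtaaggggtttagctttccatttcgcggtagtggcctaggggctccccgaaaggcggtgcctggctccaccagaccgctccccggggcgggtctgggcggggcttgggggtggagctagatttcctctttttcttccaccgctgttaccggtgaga
Aldoa: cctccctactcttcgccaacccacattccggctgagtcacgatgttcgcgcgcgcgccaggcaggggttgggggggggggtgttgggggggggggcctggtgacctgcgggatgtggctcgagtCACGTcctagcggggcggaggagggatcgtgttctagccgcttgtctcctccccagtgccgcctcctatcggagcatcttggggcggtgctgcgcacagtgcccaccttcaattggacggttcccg
Gapdh: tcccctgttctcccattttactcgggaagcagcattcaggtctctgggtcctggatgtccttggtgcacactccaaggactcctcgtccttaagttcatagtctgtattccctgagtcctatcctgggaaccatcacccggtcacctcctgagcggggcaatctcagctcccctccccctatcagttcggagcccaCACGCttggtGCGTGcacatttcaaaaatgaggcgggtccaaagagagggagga
The stretch for Egln3 held 1 match and that for Gapdh 2. Aldoa had 1 match, and Vegfa none in this window. Windows that overlap annotated exons were not printed: a second one of Vegfa and that of Higd1a held 2 matches each, and that of Tpi1 held 0. Over all members, 34 of 43 windows of 30 genes (79.1%) held the core at least once, against 12679 of 32851 windows (38.6%) of all genes. Median GC content was 61.6% in the members' windows and 52.4% in all windows, and both motif forms contain CG. A match is a run of letters, not a measured binding site.

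Levels ran over a wide range. Per kilobase of exon, Pkm (pyruvate kinase M) was the most abundant member at 579 CPM per kb, followed by Pgk1 (phosphoglycerate kinase) at 573 CPM per kb and Pgam1 (phosphoglycerate mutase) at 405 CPM per kb. Car9, a carbonic anhydrase of the cell surface, lay at 3.49 CPM per kb and its relative Car12 at 0.158 CPM per kb, with 1.09 to 1.41 CPM as group means, so Car12 is too low for fine differences. A second gene model that carries the name Aldoa, drawn as Aldoa-upstream, gave 0.194 to 1.27 CPM. Variation was unequal too. The SD of log2 CPM over the 12 tumors was 0.59 for Car9, 0.30 for Vegfa and 0.28 for Slc2a1, compared with 0.15 for Ldha and Pgam1 and a median of 0.17 over the 10117 tested genes with a mean of at least 10 CPM.

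Gapdh, the usual reference gene and the internal control of the study's RT-qPCR, was only the 22nd of the 33 members per kilobase, at 14.0 CPM per kb. Its own row held 48.4, 54.9 and 37.4 CPM in Control, 55.8, 48.4 and 53.1 CPM in ASC, 79.5, 64.1 and 65.2 CPM in As300 and 62.8, 68.9 and 57.7 CPM in ASC_As300. Another 69 annotated genes, mostly pseudogenes, match at least 80% of its coding sequence at 95% identity or more, and 97.9% of the counts of the whole family stood on these copies. Summed with its copies, Gapdh reached 2139, 2354 and 2194 CPM in Control and 2781, 2367 and 3084 CPM in ASC. The sum was 3092, 2930 and 2785 CPM in As300 and 3152, 2831 and 3276 CPM in ASC_As300, so that every tumor of the other groups lay above every Control tumor. Values of the Gapdh row alone therefore rest on a small and uncertain share of its reads. The copies held 9.3% of the family's counts for Eno1, 6.15% for Bnip3l, 4.46% for Pgam1 and 2.69% for Pgk1, and for the other members at most 1.47%. Several members also overlap a gene on the opposite strand that had counts of its own. Where counting ignored strand, reads from a stretch shared by both genes cannot be told apart. Against the member's own counts the total counts of these neighbors reached 386% for Ankrd37 (Ufsp2), 213% for the second Aldoa model (Fam57b), 95.4% for Pfkp (Pitrm1), 76.7% for Pfkm (Senp1), 24.4% for Gapdh (Iffo1) and 11.6% for Car9 (Gm12454). Overlap was taken over whole genes, introns included, so these percentages do not measure how many reads could be shared.

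**Figure D1:**
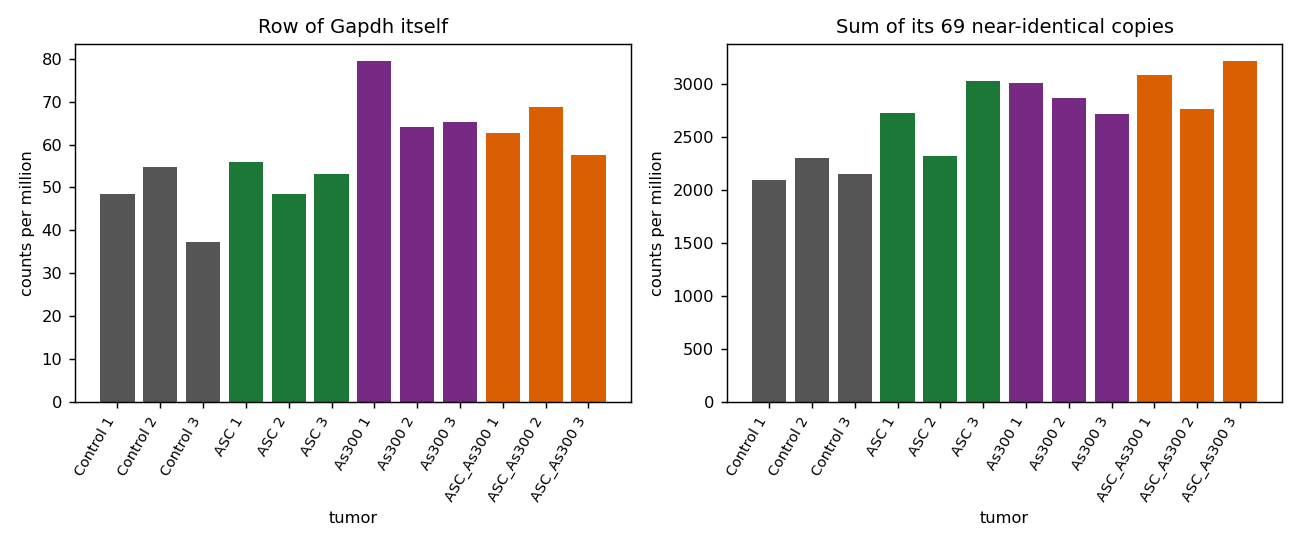
CPM in each of the 12 tumors (bars, colored by group) on the row of Gapdh itself (left) and summed over its 69 near-identical copies (right). The 2 axes differ in scale: the row holds 37.4 to 79.5 CPM, while the copies hold 2091 to 3218 CPM.

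In ASC against Control no member was called by edgeR. The smallest p-values belonged to Egln3, Higd1a, Vegfa, Car9 and Slc2a1, of which Higd1a was higher and the others lower in every ASC tumor than in any Control tumor. Egln3, which encodes the prolyl hydroxylase PHD3, stood at 156, 149 and 158 CPM in Control and 117, 95.3 and 114 CPM in ASC. Every ASC tumor was below every Control tumor, with a log2 fold change of -0.50 ± 0.10 (SE) and an adjusted p of 0.041 by edgeR's quasi-likelihood test. That p is below 0.05, but the change is smaller than the 1.5-fold minimum that a call also needs. The adjusted p was above 0.05 when any one of 9 tumors was left out, among them ASC replicate 2 (adjusted p of 0.135, log2 fold change of -0.41). With a correction for the GC content of transcripts it was 0.037 by edgeR, at a log2 fold change of -0.54.

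Vegfa, which encodes the growth factor of vessels, measured 227, 273 and 224 CPM in Control and 203, 146 and 146 CPM in ASC. The groups did not overlap, at a log2 fold change of -0.55 ± 0.15 and an adjusted p of 0.13. Slc2a1, the glucose transporter GLUT1, measured 230, 232 and 247 CPM in Control and 195, 151 and 177 CPM in ASC, a log2 fold change of -0.44 ± 0.15 at an adjusted p of 0.20. Here too the ranges did not meet. Car9 gave 9.55, 11.5 and 6.4 CPM in Control and 5.43, 6.16 and 2.73 CPM in ASC. Its tumors were separate by a narrow gap, and its log2 fold change of -0.94 ± 0.32 had an adjusted p of 0.20 by edgeR. By DESeq2 the adjusted p was 0.042, and Car9 was the only member DESeq2 called in this comparison. DESeq2 gave lower adjusted p-values for Egln3 (0.00026), Vegfa (0.0098) and Higd1a (0.016), whose changes were under 1.5-fold. For Slc2a1 it gave 0.055. Without ASC replicate 2 the log2 fold changes were -0.47 for Vegfa, -0.35 for Slc2a1 and -1.17 for Car9.

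Pdk1, a kinase that keeps pyruvate out of the mitochondrial cycle, measured 127, 150 and 140 CPM in Control and 141, 86.1 and 104 CPM in ASC. Bnip3, a mitochondrial receptor for autophagy, measured 126, 145 and 156 CPM in Control and 142, 88.2 and 97.8 CPM in ASC. In both, ASC replicate 1 lay among the Control tumors, so the groups overlapped, and the log2 fold changes of -0.33 ± 0.15 and -0.38 ± 0.18 had adjusted p-values of 0.32 and 0.34. Without ASC replicate 2 they were -0.18 and -0.25. Hif1a stood at 249.9, 273 and 311 CPM in Control and 277, 239 and 187 CPM in ASC, again with overlap. Higd1a, which encodes a mitochondrial protein induced by hypoxia, went the other way. It measured 36.1, 33.0 and 29.9 CPM in Control and 44.6, 41.3 and 41.3 CPM in ASC, with a log2 fold change of 0.36 ± 0.10 and an adjusted p of 0.12.

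By edgeR, 0 of the 33 members passed both thresholds in ASC against Control, where 0.721% of all 20818 tested genes did, and DESeq2 called 1, where it called 1.33% of 33928 genes. The 33928 are all genes with any count, among them low ones that edgeR's filter dropped. DESeq2 shares, here and below, are therefore not on the same base as edgeR's. At an unadjusted p under 0.05, 1 member was higher and 5 were lower, compared with 8.55% and 6.87% of all tested genes. Groups did not overlap for 1 member in the higher and 5 in the lower direction, the last being Pfkl, the liver phosphofructokinase. The background was 9.94% of all tested genes higher and 9.01% lower. The median log2 fold change of the members was -0.05, compared with -0.0044 over all tested genes. It ran from -0.11 without ASC replicate 1 to 0.043 without ASC replicate 2, and was 0.013 without Control replicate 2. Among the 14 rows of the glycolytic enzymes 7 were higher and 7 lower. Macrophage markers moved with this contrast. Of 9 markers 8 were higher, 4 of them called, and their sums ran from 849 to 1175 CPM in Control and from 1260 to 1769 CPM in ASC, with none of the 9 at 0. T and NK cell markers were higher for 8 of 9 genes, with sums of 26.9 to 87.1 CPM in Control and 75.0 to 95.1 CPM in ASC. The part of these cells in the members' values was not tested.

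**Figure D2:**
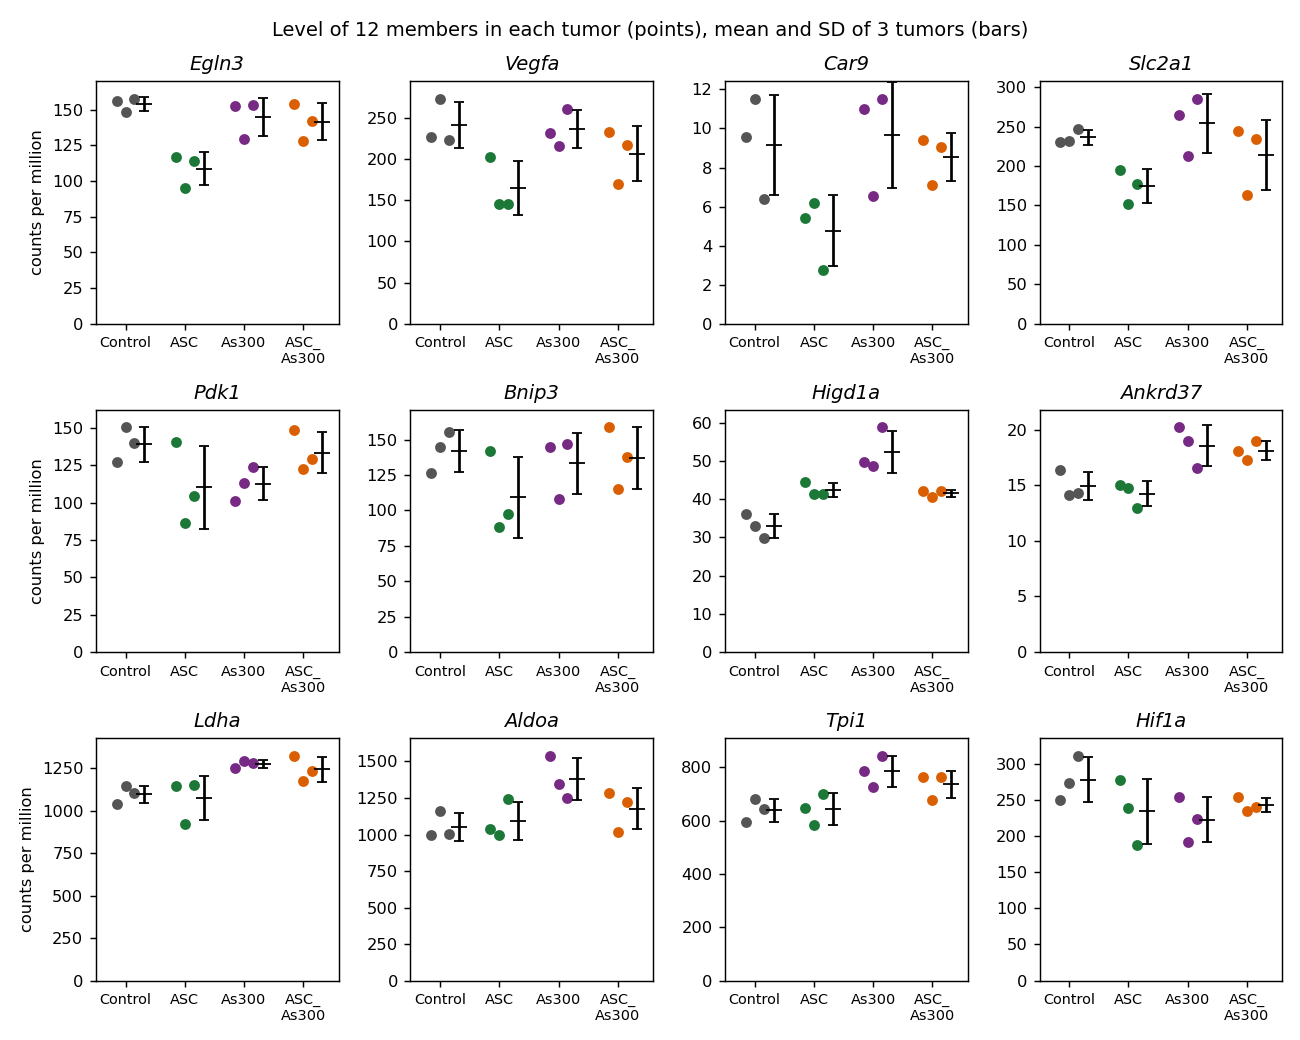
Level of 12 members in CPM (vertical axis from 0) in the 3 tumors of each group (points), with the mean and SD beside them. Egln3, Vegfa, Car9 and Slc2a1 are low in the 3 ASC tumors, whereas Higd1a is lowest in Control and highest in As300.

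In As300 against Control, Higd1a rose and was the only member called by edgeR. None of the 14 glycolytic rows was called, and 12 of them had a log2 fold change above 0, where 47.5% of all tested genes did. Higd1a measured 36.1, 33.0 and 29.9 CPM in Control and 49.7, 48.7 and 58.8 CPM in As300, so that the lowest As300 tumor was well above the highest Control tumor. It rose by 0.67 ± 0.10 on the log2 scale (1.59-fold), with an adjusted p of 0.037 by edgeR and 1.17e-07 by DESeq2. Higd1a lies on chromosome 9 (121848563 to 121858362, minus strand, GRCm38). Its log2 fold change was between 0.60 and 0.75 with any one tumor left out, but the adjusted p was above 0.05 without Control replicate 1 (0.066), 2 (0.104) or 3 (0.1003), without As300 replicate 2 (0.116) or 3 (0.070), and without ASC_As300 replicate 1 (0.058) or 3 (0.070). Those refits left few or no calls in the whole table, where the main fit called 220 of 20818 genes. Without any one Control tumor, or without ASC_As300 replicate 1 or 3, edgeR called 0 genes in this comparison. Without As300 replicate 2 it called 0 higher and 1 lower, and without As300 replicate 3 it called 1 higher and 1 lower. In the fit corrected for GC content, Higd1a was called at 0.78 and an adjusted p of 0.034, and no other gene of the table was.

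The Gapdh row gave a log2 fold change of 0.57 ± 0.13 with an adjusted p of 0.046, just short of 1.5-fold. DESeq2 called it and Higd1a, where it called 2.41% of 33928 genes. Summed with its copies, the change was 0.40 ± 0.11 with an adjusted p of 0.058. Aldoa (aldolase A) measured 995, 1162 and 1003 CPM in Control and 1538, 1347 and 1253 CPM in As300. All As300 tumors were above all Control tumors, at 0.39 ± 0.12 and an adjusted p of 0.082. As300 replicate 1, the highest for Aldoa, is one of the pair of tumors with the highest sums of muscle markers. The part of muscle in Aldoa was not tested. Tpi1 (triosephosphate isomerase) went from 595, 681 and 642 CPM in Control to 785, 727 and 842 CPM in As300, a log2 difference of 0.30 ± 0.09 with an adjusted p of 0.086. By DESeq2 the adjusted p was 0.010 for Aldoa and 0.012 for Tpi1, both under 1.5-fold.

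Eno1 (enolase 1) measured 1450, 1366 and 1428 CPM in Control and 1562, 1710 and 1836 CPM in As300. Its log2 fold change was 0.27, at an adjusted p of 0.11 by edgeR and 0.017 by DESeq2. For Gpi1 (glucose-6-phosphate isomerase) the values were 548, 575 and 585 CPM against 660, 660 and 663 CPM. Ldha, the lactate dehydrogenase subunit A, measured 1042, 1145 and 1104 CPM in Control and 1253, 1294 and 1280 CPM in As300. Slc16a3, which encodes the lactate exporter MCT4, measured 51.0, 66.6 and 65.5 CPM and 84.0, 70.8 and 75.6 CPM in the same groups. Both did not overlap, with log2 fold changes of 0.22 and 0.33 and adjusted p-values of 0.18 and 0.17. Ankrd37, an ankyrin repeat protein known as a HIF-1 target, had 16.4, 14.1 and 14.3 CPM in Control and 20.2, 19.0 and 16.5 CPM in As300, where 2 values nearly touched. Its log2 fold change was 0.31, at an adjusted p of 0.14. By DESeq2 too the adjusted p was above 0.05 for Gpi1, Ldha, Slc16a3 and Ankrd37.

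Egln3, Vegfa, Slc2a1 and Car9, which were separate from Control in ASC, overlapped Control in As300. Egln3 measured 153, 130 and 153 CPM, Vegfa 231, 216 and 261 CPM, Slc2a1 265, 212 and 285 CPM and Car9 10.98, 6.56 and 11.5 CPM in As300. Bnip3, at 145, 108 and 147 CPM, also overlapped. Pdk1 was below every Control tumor at 101, 113 and 124 CPM, a log2 difference of -0.30 ± 0.15 with an adjusted p of 0.25. Hif1a measured 254, 192 and 223 CPM in As300, with a log2 fold change of -0.32 and an adjusted p of 0.18. Ddit4, whose product REDD1 restrains mTORC1, measured 90.5, 84.5 and 81.6 CPM in Control and 85.0, 141 and 139.7 CPM in As300, where replicate 1 stayed within the Control range. Its log2 fold change was 0.51, at an adjusted p of 0.089 by edgeR and 0.016 by DESeq2. Without As300 replicate 1 it was 0.72 with an adjusted p of 0.048 by edgeR. Pfkfb3, an enzyme that makes the activator of phosphofructokinase, measured 30.2, 32.2 and 22.0 CPM in Control and 27.1, 15.6 and 17.1 CPM in As300, which overlapped.

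By edgeR 1 of the 33 members, Higd1a, was called in As300 against Control, where 1.06% of all tested genes were. Of the members 10 were higher and 1 lower at an unadjusted p under 0.05, compared with 11.2% and 13% of all tested genes. Groups did not overlap for 11 members in the higher direction (14.5% of all tested genes) and for 1 in the lower (15.4% of all tested genes). Of the 11, 7 are glycolytic enzymes (Gpi1, Pfkl, Aldoa, Tpi1, Gapdh, Eno1 and Pkm), and the other 4 are Ldha, Slc16a3, Ankrd37 and Higd1a. The median log2 fold change was 0.10 for the members and 0.16 for the 14 glycolytic rows, compared with -0.028 for all tested genes. With a tumor left out the members' median was 0.075 to 0.20, the highest without Control replicate 2. A correction for the GC content of transcripts moved many of these values by over 1.5 times. Among the glycolytic enzymes Aldoa changed from 0.39 to 0.17, Tpi1 from 0.30 to 0.18, Eno1 from 0.27 to 0.13 and Gpi1 from 0.22 to 0.097. Slc16a3 changed from 0.33 to 0.085, Ddit4 from 0.51 to 0.26, Pdk1 from -0.30 to -0.20, Hif1a from -0.32 to -0.013 and the members' median from 0.10 to 0.019. Gapdh (0.43), Ankrd37 (0.35) and Ldha (0.18) moved less. Transcript GC was 41% for Hif1a and 58.1% for Slc16a3. Adipocyte markers moved with the contrast too, all 7 of 7 being lower, with sums of 174 to 398 CPM in Control and 49.8 to 86.5 CPM in As300. T and NK cell markers were lower for 9 of 9 genes, with sums of 87.1, 27.1 and 26.9 CPM in Control and 22.7 to 30.3 CPM in As300. Control replicates 2 and 3 thus lay within the As300 range of these T and NK sums. The part of the adipocyte, T and NK cell markers in the result was not tested.

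**Figure D3:**
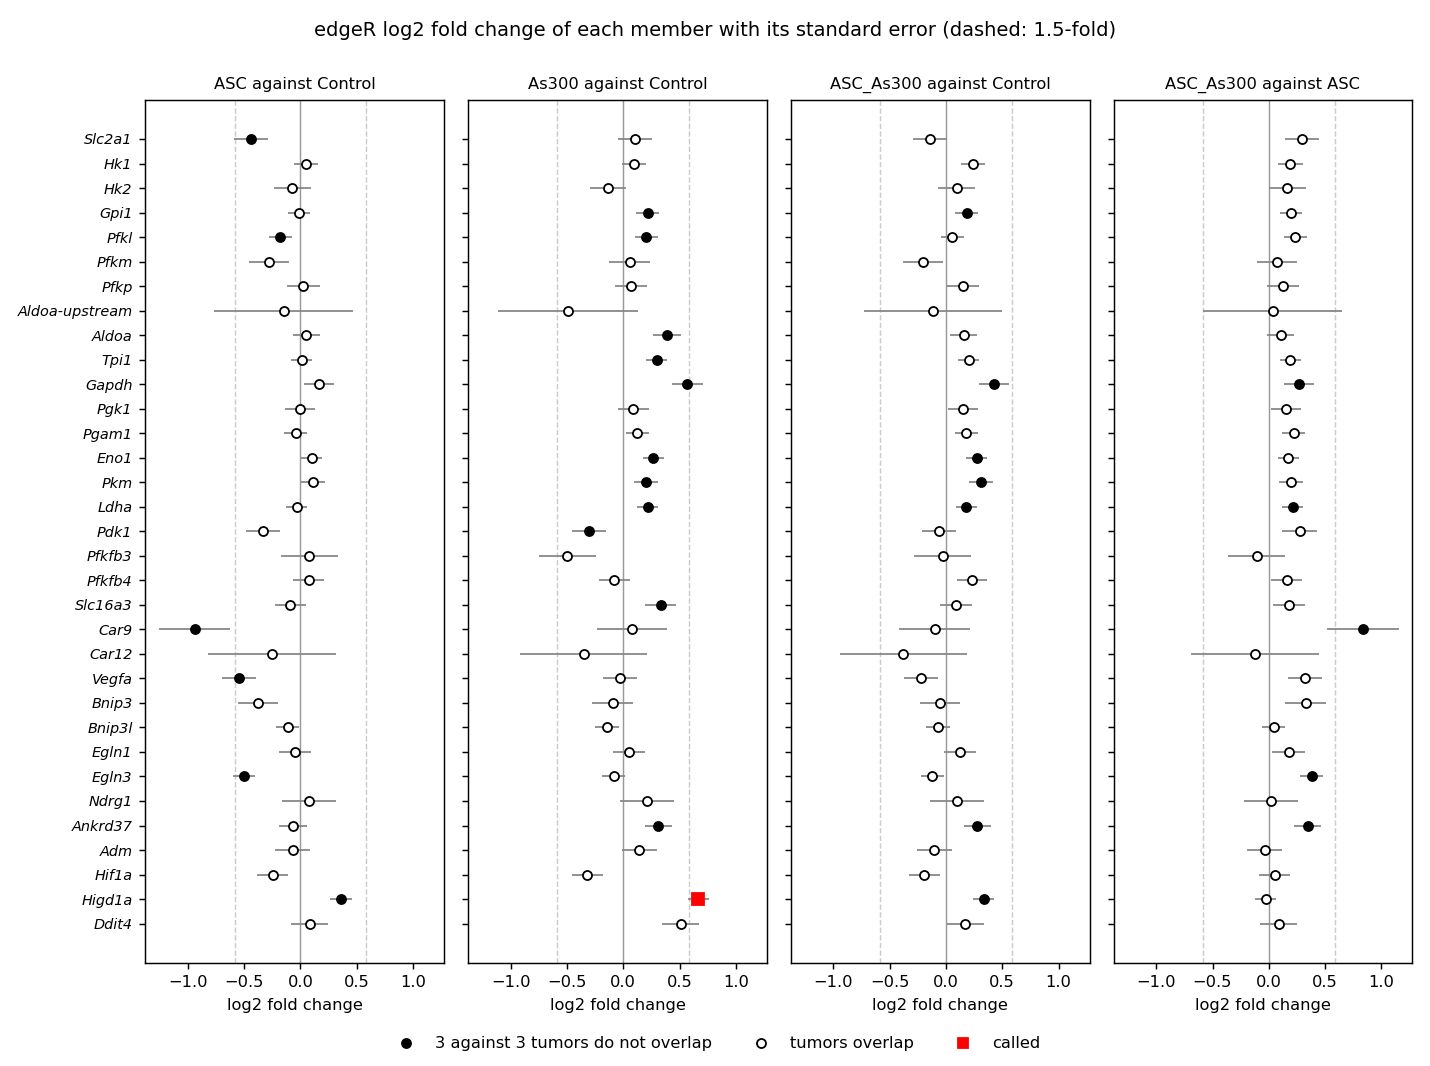
Log2 fold change of the 33 member rows (points, with SE) in 4 comparisons. Filled points mark members whose 3 tumors of one group do not overlap the 3 of the other, and the red square marks Higd1a, the member called. The filled points lie to the left in ASC against Control (5 of 6) and to the right in As300 against Control (11 of 12, the square included).

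In ASC_As300 against Control no member was called, and Egln3, Vegfa, Slc2a1 and Car9 overlapped Control. ASC_As300 tumors had Egln3 at 154, 128 and 142 CPM, Vegfa at 233, 169.6 and 217 CPM, Slc2a1 at 245, 163 and 235 CPM and Car9 at 9.42, 7.11 and 9.06 CPM. Replicate 2 was the lowest of the 3 for each of these. Pdk1 measured 149, 122 and 129 CPM, Bnip3 159, 115 and 138 CPM, and Hif1a 254, 235 and 240.1 CPM. Higd1a was above all Control tumors at 42.1, 40.5 and 42.2 CPM, a log2 difference of 0.33 ± 0.10 with an adjusted p of 0.14. Pkm went from 2460, 2620 and 2691 CPM in Control to 3194, 3117 and 3344 CPM, Eno1 stood at 1817, 1610 and 1703 CPM, and Ldha at 1323, 1174 and 1233 CPM. The log2 fold changes were 0.31 ± 0.11, 0.27 ± 0.09 and 0.18 ± 0.09, with adjusted p-values of 0.21, 0.21 and 0.39. By DESeq2 the adjusted p was 0.034 for Higd1a, 0.048 for Pkm, 0.054 for Eno1 and 0.26 for Ldha, all under 1.5-fold. The GC correction took Pkm to 0.19 and Eno1 to 0.16. Gapdh with its copies differed by 0.47 ± 0.11 at an adjusted p of 0.062.

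Of the 33 members, edgeR and DESeq2 each called 0 in ASC_As300 against Control, where edgeR called 0.807% of all tested genes and DESeq2 1.15% of 33928 genes. Of the members 6 were higher and 0 lower at an unadjusted p under 0.05, compared with 8.7% and 6.5% of all tested genes. Groups did not overlap for 7 members, all higher (13.5% of all tested genes higher and 12.2% lower). These were Gpi1, Gapdh, Eno1, Pkm, Ldha, Ankrd37 and Higd1a. The members' median was 0.10, compared with -0.023 over all tested genes, and was 0.19 without Control replicate 2 and 0.0096 with the GC correction. Adipocyte markers were lower for 7 of 7 genes here as well, with sums of 32.1 to 67.0 CPM in ASC_As300, and Lep was at 0 in replicate 1. Macrophage markers were higher for 8 of 9 genes, 4 of them called, with sums of 1343 to 1592 CPM. For T and NK cells, 8 of 9 markers were higher, 1 of them called, with sums of 80.4 to 99.6 CPM in ASC_As300. The part of the adipocyte, macrophage, T and NK cell markers in the members' values was not tested.

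ASC_As300 against ASC asks what arsenic does in tumors that carry ASC. Egln3 was higher in all 3 ASC_As300 tumors, with a log2 fold change of 0.38 ± 0.10 and an unadjusted p of 0.0024 by edgeR. Car9 differed by 0.84 ± 0.32 (unadjusted p of 0.021) and Ankrd37 by 0.35 ± 0.12 (0.015), both without overlap between the groups. Ankrd37 measured 15.0, 14.8 and 12.9 CPM in ASC and 18.1, 17.3 and 19 CPM in ASC_As300. Ldha, at 1144, 924 and 1151 CPM in ASC, differed by 0.21, and by 0.12 without ASC replicate 2. Every adjusted p was 1. Neither edgeR nor DESeq2 called a member, where edgeR called 0% of all tested genes and DESeq2 0.0324% of 33928. At an unadjusted p under 0.05, 5 members were higher and 0 lower, compared with 1.47% and 1.74% of all tested genes. Groups did not overlap for 5 members, all higher, compared with 4.17% of all tested genes higher and 3.91% lower. In all, 29 of 33 members were higher, where 48.6% of all tested genes were, with a median of 0.18 (0.12 to 0.24 over the alternatives) against -0.0061 for all tested genes. Adipocyte markers were lower for 7 of 7 genes, their sums in ASC being 47.3, 806 and 62.3 CPM, and their part was not tested.

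The ASC group itself holds the tumor that was lowest for most members. ASC replicate 2 had the lowest level of 21 of the 33 members, and its median deviation from the members' means was -0.30 on the log2 scale. No other tumor was lowest for more than 3. This tumor also had the largest share of counts on the most abundant row, as given above, and the highest marker sums for fat, fibroblasts, macrophages and endothelium. Whether these bear on the members was not tested. Pfkfb3 was the member that was highest in it, at 42.2 CPM, against 15.6 to 32.2 CPM in the other tumors.

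**Figure D4:**
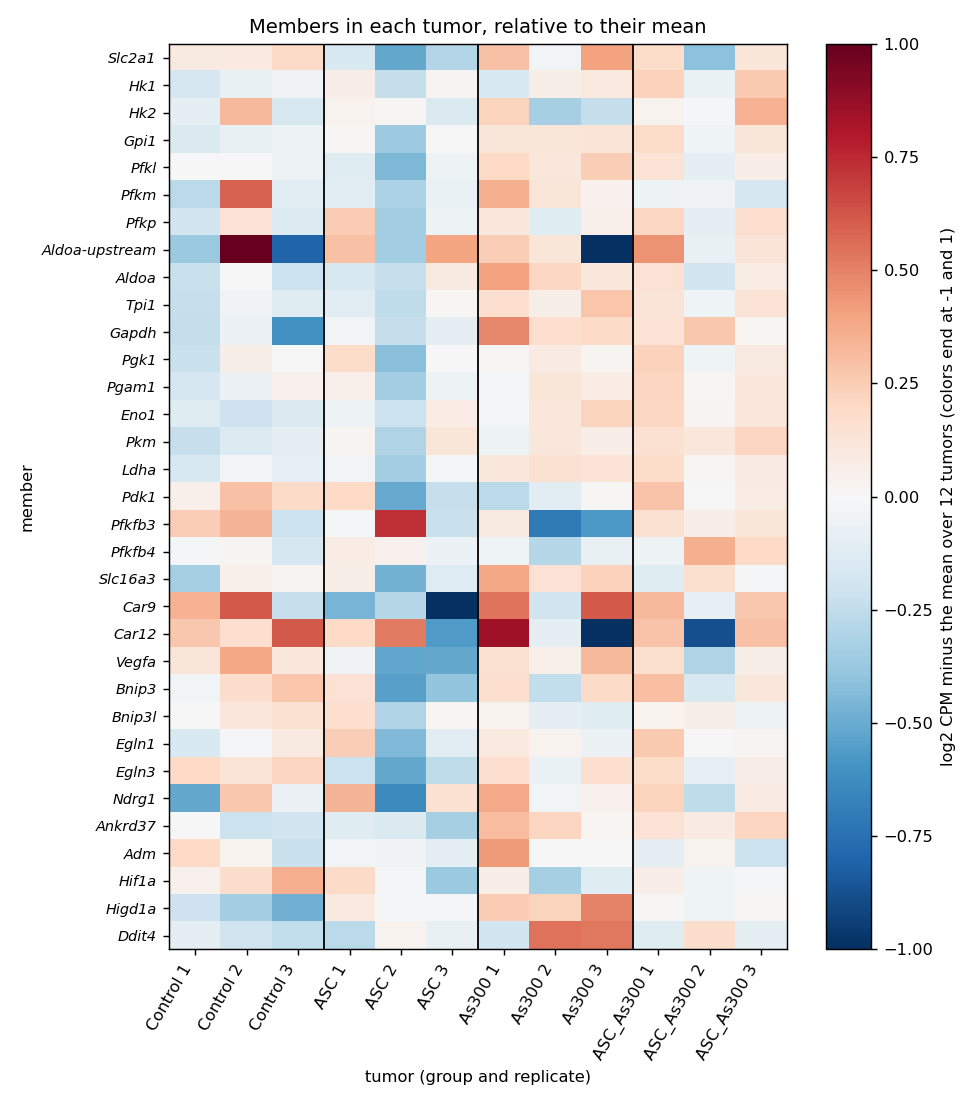
Log2 CPM of each member (rows) in each tumor (columns, separated by group) minus the member's mean over the 12 tumors, from blue (lower) to red (higher). The column of ASC replicate 2 is the bluest, with 21 of 33 members at their lowest, while As300 replicate 1 holds the highest level of 7 members.

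ASC_As300 against As300 asks what ASC do in mice that drink arsenic. Higd1a was lower in every ASC_As300 tumor, at a log2 fold change of -0.33 ± 0.09. Its adjusted p was 0.19 by edgeR and 0.033 by DESeq2. Neither tool called a member (edgeR called 0.855% of all tested genes and DESeq2 1.18% of 33928), and at an unadjusted p under 0.05 1 member was higher and 1 lower, compared with 6.33% and 3.65% of all tested genes. Groups did not overlap for 1 member in the higher direction, Pkm, and 2 in the lower, Higd1a and Pfkm (11.3% of all tested genes higher, 8.37% lower). Pfkm, the muscle phosphofructokinase, was highest in Control replicate 2 (115 CPM) and As300 replicate 1 (97.4 CPM), against 61.3 to 82.8 CPM in the other tumors. Control replicate 2 and As300 replicate 1 also had the highest sums of muscle markers. ASC replicate 2, next in muscle markers at 391 CPM, had the lowest Pfkm, 61.3 CPM. The part of muscle in Pfkm was not tested. T and NK cell markers were higher for 9 of 9 genes, 2 of them called, with sums of 22.7 to 30.3 CPM in As300 and 80.4 to 99.6 CPM in ASC_As300. Macrophage markers were higher for 8 of 9 genes, 1 of them called, with sums of 1192 to 1199 CPM and 1343 to 1592 CPM. Their part in the members' values was not tested.

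Averaged over both iAs levels, the ASC estimate was below 0 for Egln3 (-0.27 ± 0.07, adjusted p of 0.095), Vegfa (-0.37 ± 0.11, 0.13), Slc2a1 (-0.34 ± 0.11, 0.19) and Car9 (-0.56 ± 0.22, 0.36). None passed the threshold, and neither tool called a member, where edgeR called 1.45% of all tested genes and DESeq2 1.41% of 33928. At an unadjusted p under 0.05, 0 members were higher and 5 lower, compared with 6.93% and 3.96% of all tested genes. The iAs estimate over both ASC levels was above 0 for 27 of 33 members and for 13 of the 14 glycolytic rows, where 47.0% of all tested genes were above 0, with a median of 0.15 (all tested genes -0.019). At an unadjusted p under 0.05, 13 members were higher and 0 lower, while 7.51% of all tested genes were higher and 8.46% lower. By edgeR no adjusted p was below 0.18. Neither tool called a member, where edgeR called 0% of all tested genes and DESeq2 0.336% of 33928. Leading members were Higd1a (0.32 ± 0.07), Gapdh (0.42 ± 0.10), Ankrd37 (0.33 ± 0.09) and Tpi1 (0.24 ± 0.07). ASC replicate 2, which was lowest for 21 of the 33 members, is among the 0 ppb tumors of the iAs estimate. With a tumor left out, the members' median of that estimate ran from 0.10 to 0.22. The GC correction, as given above, lowered the members' median in As300 against Control.

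The interaction tests whether the arsenic difference is itself different with ASC. Higd1a gave -0.69 ± 0.13, the arsenic difference being 0.67 without ASC and -0.03 with ASC. Its adjusted p was 0.31 by edgeR and 0.0023 by DESeq2, which called it and 0.513% of 33928 genes. Egln3 gave 0.47 ± 0.14 and Pdk1 0.58 ± 0.22, with adjusted p-values of 0.31 and 0.32. By edgeR 0 members were called (0% of all tested genes), 2 were higher and 1 lower at an unadjusted p under 0.05, and the background was 7.08% higher and 6.55% lower. The differences between arsenic with and without ASC therefore did not pass the threshold of the main test for any member.

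Across the 12 tumors, Car9 was compared with 8 other members, which share its libraries. Log2 CPM of Car9 correlated with Vegfa at a Pearson r of 0.80 (permutation p of 0.00099, adjusted over the 8 pairs 0.0079) and a Spearman rho of 0.88 (permutation p of 0.00037, adjusted 0.003). With ASC replicates 1 and 3, the tumors farthest from the median of Car9, left out, r was 0.76 (permutation p of 0.0037, adjusted 0.030). Within groups, after the group means were subtracted, r was 0.57 (adjusted permutation p of 0.28), so the relation rests in part on the difference between groups. Egln3 (r = 0.67, rho = 0.59) and Slc2a1 (r = 0.66, rho = 0.64) had adjusted permutation p-values of 0.045 for r and 0.12 and 0.11 for rho, and within groups r was 0.083 and 0.29. Bnip3 gave an r of 0.61 and a rho of 0.53 (adjusted permutation p of 0.070 and 0.16). Hif1a (0.40), Pdk1 (0.34), Pgk1 (0.091) and Ndrg1 (0.073) gave lower r, with adjusted permutation p-values of 0.31 to 0.82. Within groups the order differed, with r of 0.54 for Hif1a, 0.34 for Bnip3 and 0.087 for Pdk1 (adjusted permutation p of 0.28, 0.71 and 0.90). Without ASC replicates 1 and 3 the r of Hif1a was 0.10.

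Related genes outside the list were counted by the same test. Of 47 other HIF targets, 0 were called by edgeR in any of the 8 comparisons, where 0% to 1.45% of all tested genes were. In ASC against Control 15 of the 47 were higher and 32 lower, where 49.5% of all tested genes were higher. Of the 47, 2 were higher and 11 lower at an unadjusted p under 0.05, compared with 8.55% and 6.87% of all tested genes. The smallest p in this list was that of Bhlhe41, a repressor induced by HIF, which measured 17.1, 17.9 and 15.0 CPM in Control and 10.8, 13.0 and 12.4 CPM in ASC (log2 fold change of -0.47, adjusted p of 0.11). In ASC_As300 against ASC 33 of 47 were higher, where 48.6% of all tested genes were, led by Bhlhe41 (0.56) and its relative Bhlhe40 (0.37), at an adjusted p of 1 each. Of 13 other regulators of HIF, 0 were called in any of the 8 comparisons, against the same 0% to 1.45% of all tested genes. Egln2, another prolyl hydroxylase, measured 35.9, 35.7 and 35.1 CPM in Control and 49.1, 47.5 and 47.6 CPM in As300, a log2 fold change of 0.44 with an adjusted p of 0.045 that was under 1.5-fold.

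Among 26 other glycolytic isozymes and transporters 1 was called in ASC against Control (0.721% of all tested genes) and 1 in As300 against Control (1.06%). The count was also 1 in ASC_As300 against Control (0.807%), ASC_As300 against As300 (0.855%) and the ASC effect over both iAs levels (1.45%). Hk3, the hexokinase typical of myeloid cells, measured 9.71, 13.6 and 8.05 CPM in Control and 42.9, 33.5 and 26.2 CPM in ASC. It rose by 1.71 ± 0.24 (adjusted p of 0.004), and by 1.72 in ASC_As300 (29.1, 40.3 and 34.2 CPM), alongside the macrophage markers given above. Aldoc (aldolase C) measured 5.25, 8.29 and 6.77 CPM in Control and 15.0, 11.9 and 18.0 CPM in As300, a rise of 1.15 ± 0.20 on the log2 scale (adjusted p of 0.040). None of 12 genes of the pentose phosphate pathway and gluconeogenesis was called in any comparison, where 0% to 1.45% of all tested genes were. Pgls, a lactonase of the pentose phosphate pathway, had the smallest p in As300 (0.51, adjusted p of 0.045). Of 14 reference genes, among which Gapdh counts again, only B2m was called. The calls fell in ASC against Control, ASC_As300 against Control, ASC_As300 against As300 and the ASC effect over both iAs levels. Shares of all tested genes in these comparisons are given above. B2m measured 689, 612 and 561 CPM in Control, 1146, 1207 and 1180 CPM in ASC, 642, 515 and 606 CPM in As300 and 1078, 1109 and 1292 CPM in ASC_As300.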

How the data were processed

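RNA of 12 tumors was sequenced as poly(A) libraries prepared with a stranded kit. Per the labels' processing notes the submitters used cutadapt 1.1.0, HISAT2 2.0, StringTie 1.3.4, DESeq2 and edgeR, the last 2 without a version. The authors deposited whole-number counts per Ensembl gene, without normalization. The study's methods describe transcripts assembled and quantified with StringTie and Ballgown as FPKM. How the deposited whole-number counts were made, the genome build and the annotation are not given in the sources used here, nor is the handling of strand and of reads that match several genes. Gene symbols, lengths and GC content came from GENCODE M21 (GRCm38), where 55141 of 55401 IDs had a symbol. Groups and replicate numbers came from the sample titles.

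edgeR 4.0.16 (R 4.3.3) gave the main test, with DESeq2 1.42.0 as the alternative and limma 3.58.1 loaded by edgeR. edgeR's default filter by group left 20818 genes, which were scaled by TMM. The quasi-likelihood fit took a mean for each group from the 12 tumors together. Its p-values were adjusted over all tested genes by the Benjamini-Hochberg method, and a call needs an adjusted p below 0.05 and at least 1.5-fold. Levels are CPM on TMM-scaled library sizes, and log2 CPM carries a prior count of 2. Near-identical copies were found by aligning coding sequences to all transcripts (at least 95% identity over at least 80% of the length). Correlation p-values came from 100000 permutations, two-sided. The fit was tested on simulated data.

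Members and lists were chosen with earlier results of these data known. Values per tumor are given for members called in any comparison, those with an unadjusted p under 0.05 and no overlap between groups, the 3 with the largest change against Control, and a set of anchors (Gapdh, Slc2a1, Ldha, Pdk1, Car9, Vegfa, Egln3, Bnip3 and Hif1a), except that Car12 and the low second Aldoa model are given by range. For other lists, called members or those with the smallest p are named. Each tumor is a separate mouse as far as the labels say, and p-values measure the spread between these tumors. An exact permutation test of 3 against 3 tumors cannot go below 0.1, so the model's p-values were used. The main fit did not pair tumors by replicate number, and correlations of same-numbered residuals ran from -0.12 to 0.17. The labels do not say what the numbers stand for, and whether equal numbers share a batch was not tested. Alternatives were DESeq2, its size factors, other filters on low counts, counts divided by 4 (low counts peak at multiples of 4), a GC correction, the compared groups alone, a replicate block and each tumor left out.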

Additional observations from a re-analysis of the deposited data

Results flagged for a closer look

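For 3 of the 33 members the arsenic difference was not the same with and without ASC at an unadjusted p under 0.05, by the interaction term of edgeR. Higd1a had an interaction of -0.69 on the log2 scale, Egln3 of 0.47 and Pdk1 of 0.58. Of 20818 tested genes 7.08% reached that unadjusted p in the higher and 6.55% in the lower direction. The members' 2 higher and 1 lower of 33 do not exceed these shares. By edgeR the adjusted p-values of 0.31, 0.31 and 0.32 did not pass 0.05. DESeq2 called Higd1a alone of these. With ASC replicate 2 left out the interactions were -0.71, 0.38 and 0.43. Groups of 3 tumors are too small for a test of single tumors that stand apart.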

How the results depend on the processing

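Over the alternatives, the number of members called moved in 3 comparisons. In ASC against Control it was 1 with no minimum of the fold change (Egln3) and 1 with DESeq2 (Car9), and 0 to 1 with a tumor left out, the 1 being Vegfa without ASC replicate 1. In As300 against Control it was 2 with no minimum of the fold change, DESeq2, DESeq2 size factors, at least 10 counts in every tumor, or counts divided by 4, where Gapdh joined Higd1a, and 0 to 2 with a tumor left out. In the interaction it was 1 with DESeq2, which called 0.513% of 33928 genes. Calls over all genes moved too. In As300 against Control the main fit called 146 higher and 74 lower of 20818, and DESeq2 size factors 188 and 60. With at least 10 counts in every tumor they were 339 and 115 of 15722. With counts divided by 4 they were 354 and 106 of 16096. DESeq2 called 2.41% of 33928. Without ASC replicate 1, ASC against Control had 298 and 57 of 21817, and the main fit 147 and 3. The replicate block left 1 member called in As300 against Control and 0 in the other comparisons, and summing near-identical copies, which was chosen after seeing the data, changed no count. The members' median log2 fold change moved by less than the spread between replicates (an SD of 0.18 on the log2 scale) in all 165 refits. That SD exceeds the size of every median itself, so the limit is a wide one and admits changes of sign. The median changed sign with a tumor left out in ASC against Control (-0.11 to 0.043) and moved over 1.5 times in As300 (0.075 to 0.20) and ASC_As300 against Control (0.068 to 0.19), where the GC correction gave 0.019 and 0.0096. Of 1386 refitted values of named members, 1348 kept their direction and side of the threshold, 9 newly passed it and 7 no longer did, all 7 for Higd1a in As300 against Control.

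The other 22 changed sign, all of them for members that overlapped between groups. In As300 against Control the GC correction gave -0.026 for Slc2a1, -0.044 for Car9 and 0.014 for Bnip3, and Vegfa gave 0.0043 with at least 10 counts in every tumor and 0.0077 with counts divided by 4. In ASC_As300 against Control the GC correction gave 0.0096 for Bnip3 and 0.0040 for Hif1a. With a tumor left out, the range in As300 against Control was -0.10 to 0.31 for Car9, -0.083 to 0.091 for Vegfa and -0.16 to 0.033 for Bnip3. In ASC_As300 against Control it was -0.24 to 0.026 for Slc2a1, -0.14 to 0.0080 for Pdk1, -0.29 to 0.11 for Car9 and -0.16 to 0.064 for Bnip3, and in ASC against Control -0.087 to 0.065 for Ldha. With group means subtracted, the correlations with Car9 were 0.29 for Slc2a1, 0.57 for Vegfa, 0.083 for Egln3, -0.17 for Pgk1 and -0.011 for Ndrg1, and without the 2 farthest tumors 0.69 for Slc2a1 and 0.62 for Egln3. The cause of these changes was not tested. With 3 tumors a group, and at least 39157647 counts per tumor, counting error is of weight for Car12 and the second Aldoa model.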
